A study of Macaca mulatta with 51 samples.

Results

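The comparison is of gastrocnemius skeletal muscle (SM) of diet-induced obese (DIO) rhesus macaques at washout with the same muscle at the end of treatment. Adult males and ovariectomized females on a high-fat diet had received native human FGF21 by daily subcutaneous injection in escalating doses for 12 weeks (post-treatment), and were sampled again 16 weeks after dosing stopped (washout). The libraries were chosen by their labels as SM libraries of these time points with counts, which gave 8 post-treatment and 7 washout libraries, 15 of the 48 libraries with counts in the series. Of the 8 animals, 7 had both libraries, and animal 21866 had a post-treatment library but no washout counts. A further 6 SM libraries were of the pre-treatment time point. All animals were treated and no untreated animals stand beside them, so that drug withdrawal, weight regain and the passage of time cannot be told apart. The biopsies were punches of whole muscle, so that fewer cells of a type and less RNA per cell cannot be told apart either.

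FGF21 is a hormone that acts through a receptor complex of FGFR1 and the co-receptor β-klotho (KLB), which is made by few tissues, among them fat and liver. Skeletal muscle takes up much of the body's glucose after a meal, burns fatty acids in its mitochondria, and is a mixture of multinucleate fibers with connective tissue, vessels and blood. Muscle is not regarded as a direct target of FGF21, and the question here is what its transcriptome did once the drug and the weight loss it brought were withdrawn.

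The label of the tissue held. The 9 markers of skeletal muscle fibers in the table were all tested, and together they summed to between 44121 and 207372 CPM (counts scaled to equal library size with TMM factors) in post-treatment libraries and between 137242 and 217263 CPM at washout. Total counts of the 15 libraries ranged from 15041909 to 21740711. The first principal component of the 21 SM libraries held 39.8% of the variance and was led by POSTN, COL11A1, COL1A1, FMOD and TNMD, genes of connective tissue and tendon. The post-treatment libraries of animals 20275, 21189, 21866 and 24849 and the washout library of animal 22130 stood apart on it, between 45.1 and 113.9, against 32.2 or less in the other libraries. The numbers in the library names fall into 3 series, called first, middle and last here. Animals 21189 and 24849 had both libraries in the last series, whereas in the other 5 animals the series differed between time points, so that series and time point are largely confounded.

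The summed level of the 23 collagen and matrix genes in the table shows how unequal the biopsies were. It ranged from 664 to 46155 CPM in post-treatment libraries with a median of 5639 CPM, and from 982 to 10069 CPM at washout with a median of 2649 CPM. In animal 21189 the sum went from 46160 to 3790 CPM, whereas in animal 22130 it went from 1074 to 10070 CPM. The markers of muscle fibers were lowest, at 44120 CPM, in the library in which matrix genes were highest. The ranges of both time points overlap, and none of the 23 matrix genes tested was differentially expressed (DE) or reached an unadjusted p under 0.05 in the quasi-likelihood test of edgeR. By DESeq2, 0 were DE and 1 had an unadjusted p under 0.05. The median log2 fold change of the 23 was -0.36, with -2.61 in the 2 animals of 1 series and 0.72 in the 5 others. Among those 5, animal 20275 was at -2.45 and the others were between 0.50 and 3.11. The median of the fit turned to 0.35 with voomWithQualityWeights, which gives unequal libraries less weight. It was 0.80 without the 5 libraries that stood apart, so that no direction is given for these genes.

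**Figure D1:**
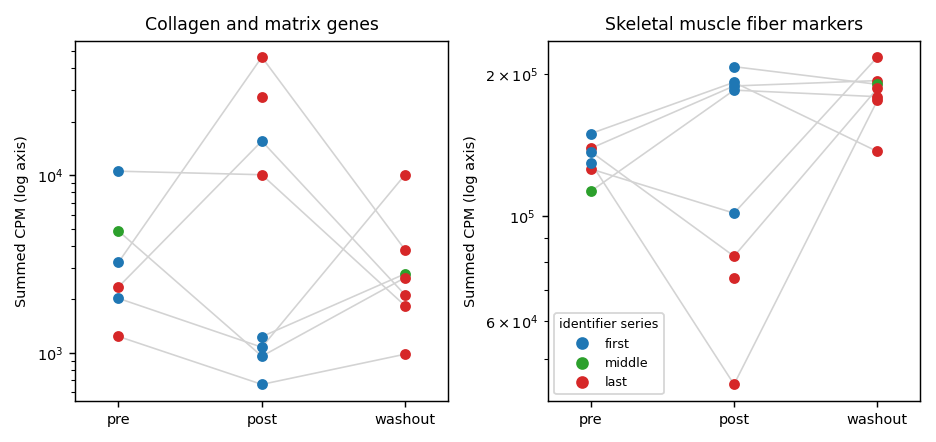
Summed CPM of the 23 collagen and matrix genes (left) and the 9 skeletal muscle fiber markers (right) in each of the 21 SM libraries, on log axes, by time point; grey lines join the libraries of 1 animal and colors give the identifier series. Post-treatment libraries span 664 to 46155 CPM of matrix genes and the 7 washout libraries 982 to 10069 CPM.

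Few genes were DE at washout compared to post-treatment. DE stands for a Benjamini-Hochberg adjusted p under 0.05 in edgeR's quasi-likelihood test with time point and animal in the model, and an absolute log2 fold change above 0.26. Of 12617 genes tested, 24 were DE (0.190%), 23 of them higher (0.182%) and 1 lower. An unadjusted p under 0.05 was reached by 2181 genes, where 631 would be expected with no change in any gene; 1024 of them were higher (8.12%) and 1157 lower (9.17%). All 7 paired animals moved in the same direction for 846 genes, 362 higher and 484 lower. Of the 23 DE genes that were higher, 22 were higher in all 7 animals, and the exception was CRYBG3 in animal 24849, at -0.03 on the log2 scale. ING3 was lower in all 7. The post-treatment and washout libraries did not overlap for 14 of the 24, against 89 of all genes tested (0.705%). The 24 were selected by a test on these same libraries. Agreement of the animals and separation of the groups thus follow in part from the selection.

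**Figure D2:**
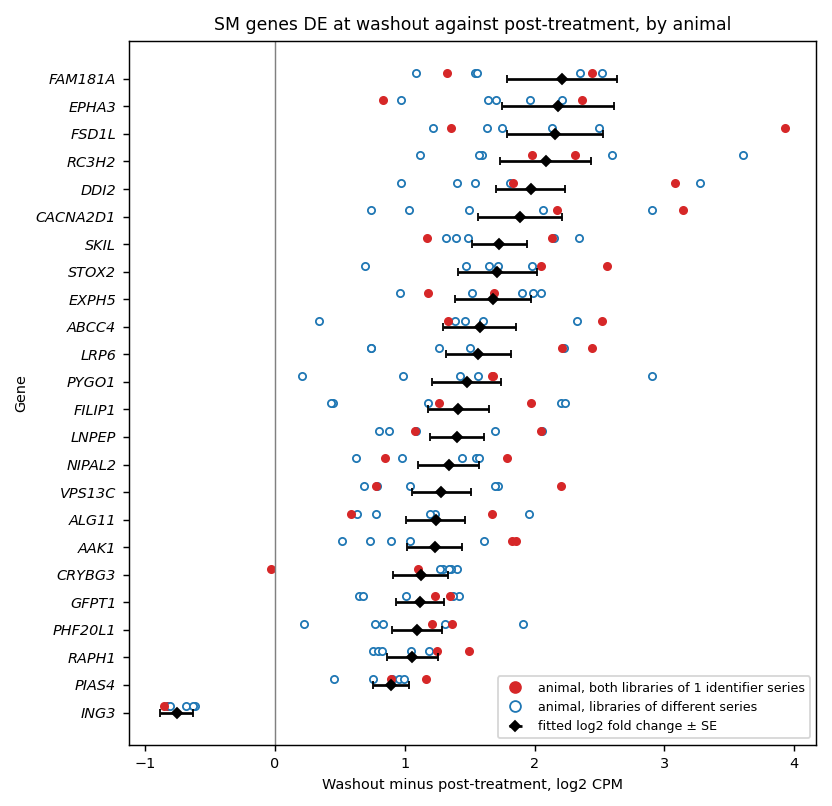
Difference in log2 CPM between washout and post-treatment for the 24 DE genes, 1 point per animal (red, both libraries in 1 identifier series; open blue, libraries of different series), with the fitted log2 fold change and its standard error (SE) as a black diamond. All points lie to the right of 0 for 22 genes and to the left of 0 for ING3.

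The number of DE genes rested on single animals. It was 0 without animal 19832 and 0 without animal 20275, with 2229 and 1529 genes at an unadjusted p under 0.05. It was 3 without animal 20456, 3 without 21189, 1 without 24849, 7 without 23004, 38 without 22130 and 29 without 21866. The 5 libraries that stood apart on the first component were also left out. The pre-treatment library of animal 24849, with 10520 CPM of matrix genes, was not among them. Without those 5, 1 gene was DE, CSF3R, which was not among the 24. The direction of all 24 genes and an unadjusted p under 0.05 were kept in each of these fits. With the series as a term in the model 2650 genes were DE, all of the 24 among them. That fit also held the pre-treatment libraries. Those of animals 19832 and 20275 shared the series of the washout library, and that of 22130 the series of the post-treatment library. How much each animal weighed in the fit was not tested. Washout could be compared with post-treatment directly within 1 series only in animals 21189 and 24849. For 19 of the 24 genes the mean change was larger in these 2 animals than in the other 5. The post-treatment libraries of both animals were also among the 5 that stood apart. Their matrix sums went from 46160 to 3790 CPM in animal 21189 and from 10050 to 1837 CPM in animal 24849. In animal 20275, whose libraries differed in series, the sum also fell, from 15540 to 2114 CPM. Series and connective tissue content thus overlap in part in this split and the later ones. The part of each was not tested.

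The DE genes are given by what their products are known to do. The gene with the smallest p was SKIL (SnoN), a repressor of the SMAD proteins that carry TGF-β signals, which had 5.16, 6.71 and 14.3 CPM as the lowest, median and highest post-treatment value and 16.6, 24.2 and 40.5 CPM at washout. Every washout library was above every post-treatment library. SKIL rose by 1.73 ± 0.21 (log2, SE; adjusted p = 0.00812 in edgeR). The pre-treatment libraries of SKIL lay between 5.19 and 11.5 CPM, in the range of the post-treatment ones.

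LRP6, a co-receptor for Wnt ligands, had 3.89, 7.44 and 14.8 CPM (lowest, median, highest) post-treatment and 19.8, 24.8 and 30.1 CPM at washout, again with no overlap. The increase of LRP6 was 1.57 ± 0.25 (log2, SE; adjusted p = 0.0338), with 2.33 in the animals of 1 series and 1.30 in the others. PYGO1 (pygopus), which joins β-catenin in the transcription of Wnt target genes, rose by 1.48 ± 0.27 (adjusted p = 0.0354), from 3.24, 8.88 and 14.0 CPM to 14.98, 25.1 and 37.8 CPM. Of the 30 Wnt receptor and transduction genes tested, 1 was DE, 4 had an unadjusted p under 0.05 and were higher and 1 was lower, beside 8.12% and 9.17% of all genes, and the median log2 fold change was 0.06, against -0.03 over all genes. CTNNB1, which encodes β-catenin, had a log2 fold change of 0.09 ± 0.11 (SE), and the nuclear factor LEF1 was at 1.02 ± 2.22 CPM (SD, n = 8) post-treatment and 0.155 ± 0.0888 CPM (SD, n = 7) at washout, lower in 4 of 7 animals. The post-treatment library of animal 21189 held 6.51 CPM of LEF1 and the other 7 between 0.0538 and 0.628 CPM, so that the mean rests on this library.

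**Figure D3:**
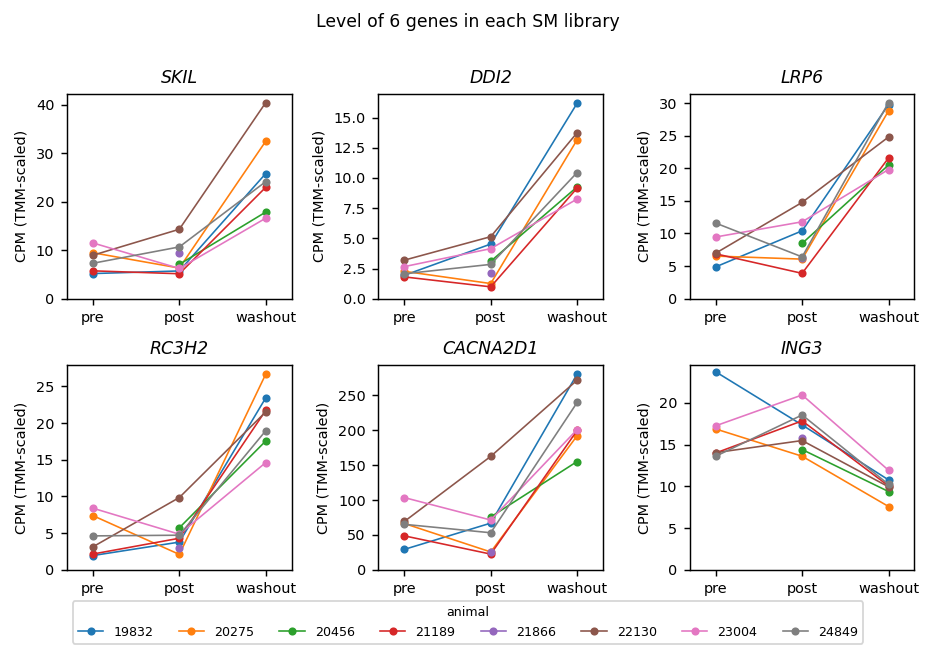
CPM scaled by TMM factors of 6 genes (SKIL, DDI2, LRP6, RC3H2, CACNA2D1, ING3) in each SM library at pre-treatment, post-treatment and washout, with the libraries of an animal joined by a line in its color. For 5 genes the washout values lie higher than post-treatment in every paired animal, and for ING3 they lie lower, between 7.58 and 11.9 CPM.

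DDI2, a protease that cuts and so activates the factor NFE2L1, had 0.982, 2.97 and 5.14 CPM post-treatment and 8.25, 10.4 and 16.2 CPM at washout. The groups did not overlap, and DDI2 rose by 1.97 ± 0.27 (log2, SE; adjusted p = 0.0137). RC3H2 (roquin-2), which marks mRNAs for decay, rose by 2.09 ± 0.35 (adjusted p = 0.0338), from 2.09, 4.50 and 9.84 CPM to 14.6, 21.5 and 26.7 CPM, and did not overlap either. NFE2L1 itself, which drives proteasome genes, had a log2 fold change of 0.46 ± 0.30 (SE, with adjusted p = 0.449). None of the 36 proteasome subunits tested was DE in edgeR or DESeq2. An unadjusted p under 0.05 was found for 15 of the subunits in edgeR, all of them lower, beside 9.17% of all genes, and the median log2 fold change was -0.26. PSMA2, a subunit of the core particle, was the subunit with the smallest p, at 139 ± 22.0 CPM (SD, n = 8) post-treatment and 106 ± 13.4 CPM (SD, n = 7) at washout. Among 28 genes of mRNA decay, 8 were higher and 2 were lower (unadjusted p under 0.05, beside 8.12% and 9.17% of all genes), and RC3H2 was the DE gene. ZFP36 (tristetraprolin), another factor that promotes decay, was at 20.9 ± 6.70 CPM (SD, n = 8) and then 10.95 ± 4.12 CPM (SD, n = 7), with an adjusted p of 0.181 in edgeR.

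GFPT1, the rate-limiting enzyme of the hexosamine pathway that feeds protein glycosylation, had 14.4, 18.0 and 26.3 CPM post-treatment and 32.7, 42.1 and 48.2 CPM at washout, without overlap, and rose by 1.12 ± 0.18 (log2, SE; adjusted p = 0.0338). ALG11, a mannosyltransferase that builds the sugar precursor for glycoproteins, rose by 1.24 ± 0.23 (adjusted p = 0.0403) and had at most 1.18 CPM post-treatment and at least 1.63 CPM at washout. VPS13C, which moves lipids between membranes, rose by 1.28 ± 0.23 (adjusted p = 0.0353), from 18.6, 33.5 and 55.1 CPM to 67.2, 77.6 and 114 CPM.

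CACNA2D1, the α2δ-1 subunit of the voltage-gated calcium channel that senses depolarization of the fiber, had 22.5, 60.0 and 163 CPM post-treatment and 155, 201 and 281 CPM at washout. The groups overlapped through animal 22130, whose post-treatment library held the 163 CPM. CACNA2D1 rose by 1.89 ± 0.33 (log2, SE; adjusted p = 0.0338), with 2.66 in the 2 animals of 1 series and 1.65 in the others. It was the DE gene among 15 of excitation-contraction coupling, of which 3 were higher and 1 was lower (unadjusted p under 0.05, beside 8.12% and 9.17% of all genes). FKBP1A, which binds the calcium release channel, was lower in all 7 animals, at 95.1 ± 30.2 CPM (SD, n = 8) and then 64.7 ± 7.82 CPM (SD, n = 7), with an adjusted p of 0.148 in edgeR. The calcium store protein CASQ1 was at 4634.5 ± 1689 CPM (SD, n = 8) and 5033 ± 987 CPM (SD, n = 7).

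LNPEP, the insulin-regulated aminopeptidase that travels in the same vesicles as the glucose transporter GLUT4, rose by 1.40 ± 0.21 (log2, SE; adjusted p = 0.0265). It had 6.59, 8.05 and 17.4 CPM post-treatment and 15.2, 27.2 and 37.1 CPM at washout, with a small overlap of the groups. SLC2A4, which encodes GLUT4, was at 409 ± 182 CPM (SD, n = 8) and then 468 ± 82.5 CPM (SD, n = 7), with a log2 fold change of 0.25 ± 0.25 (SE). Of 24 genes of insulin signaling and glucose uptake, 0 were DE in edgeR and 2 in DESeq2, beside 359 of all 12617 genes in DESeq2. In edgeR 4 were higher at an unadjusted p under 0.05, beside 8.12% of all genes. They were led by PIK3CA, the catalytic subunit of phosphoinositide 3-kinase (0.67 ± 0.13, adjusted p = 0.0635). AAK1, a kinase of clathrin-coated vesicles, rose by 1.23 ± 0.21 (adjusted p = 0.0338), FILIP1, which binds filamin, by 1.41 ± 0.23 (adjusted p = 0.0338) and RAPH1 (lamellipodin), which guides actin at the cell edge, by 1.06 ± 0.20 (adjusted p = 0.0433). EXPH5, an effector of the vesicle protein Rab27, rose by 1.68 ± 0.29 (adjusted p = 0.0338) although its groups overlapped widely, from 1.27 to 8.89 CPM and from 2.63 to 33.6 CPM: the animals differed in level and moved alike. The efflux pump ABCC4 rose by 1.58 ± 0.28 (adjusted p = 0.0352).

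The nuclear genes held the 1 decrease. ING3, a subunit of the NuA4 histone acetyltransferase complex, had 13.6, 16.6 and 20.9 CPM post-treatment and 7.58, 10.0 and 11.9 CPM at washout, with no overlap. It fell by 0.76 ± 0.13 (log2, SE; adjusted p = 0.0338), and the difference was between -0.85 and -0.61 in every animal, the narrowest range of the 24. PHF20L1, which reads methylated lysine, rose by 1.09 ± 0.19 (adjusted p = 0.0338), and PIAS4, a ligase for the small modifier SUMO, rose by 0.89 ± 0.14 (adjusted p = 0.0338) with no overlap, from at most 3.92 to at least 5.34 CPM. STOX2 rose by 1.71 ± 0.30 (adjusted p = 0.0342).

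The remaining DE genes had low or less studied products. EPHA3, a receptor for ephrins, was at 0.151 ± 0.166 CPM (SD, n = 8) post-treatment and 0.579 ± 0.252 CPM (SD, n = 7) at washout and rose by 2.18 ± 0.43 (adjusted p = 0.0338). Some post-treatment libraries held 0 counts of EPHA3 and of FAM181A, so that the size of these folds depends on the prior count. FAM181A (2.21 ± 0.42, adjusted p = 0.0419), FSD1L (2.16 ± 0.37, adjusted p = 0.0338), NIPAL2 (1.34 ± 0.23, adjusted p = 0.0338) and CRYBG3 (1.12 ± 0.21, adjusted p = 0.0476) also rose.

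Outside the DE genes, the 5 increases with the smallest p were PIM1, TTLL7, PIK3CA, WDFY3 and HIPK1 and the 5 decreases PPIH, FAM13A, COX7A2L, ZNF805 and ABCG1, each in the same direction in all 7 animals. The kinase PIM1 had 5.43, 10.6 and 13.5 CPM post-treatment and 13.6, 37.5 and 86.3 CPM at washout (log2 fold change 1.80 ± 0.34, adjusted p = 0.0526). ABCG1, which exports cholesterol from cells, was higher post-treatment, with 11.03, 25.4 and 46.6 CPM against 3.42, 10.5 and 31.0 CPM at washout and 2.70, 12.9 and 27.5 CPM pre-treatment (log2 fold change at washout -1.33 ± 0.30, adjusted p = 0.0975). COX7A2L, which helps respiratory complexes to assemble, and PPIH, a splicing protein, had groups that did not overlap, with log2 fold changes of -0.47 ± 0.11 (adjusted p = 0.0964) and -0.81 ± 0.16 (adjusted p = 0.0549).

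Lists of genes were then described. The lists were written with results of these data in view, so that their counts are a description. The clearest list was that of the cytosolic ribosomal proteins, the protein part of the ribosome. All 79 tested had a negative log2 fold change, 67 of them with an unadjusted p under 0.05 against 9.17% of all genes, and the median was -0.57. None was DE in edgeR and 0 in voomWithQualityWeights, whereas 41 were DE in DESeq2, beside 359 of all 12617 genes. The list median was below 0 in each animal, from -0.11 in animal 20456 to -1.27 in animal 21189. It was -0.39 without the 5 libraries that stood apart on the first component and -0.71 with library size as the scaling. The summed level ranged from 14001 to 26613 CPM post-treatment, from 11100 to 14753 CPM at washout and from 13262 to 22756 CPM pre-treatment, so that the ranges overlapped. RPL22L1, a paralog of RPL22, had the smallest p, at 29.5 ± 17.5 CPM (SD, n = 8) and 11.03 ± 2.81 CPM (SD, n = 7), with an adjusted p of 0.107. The abundant RPL4 and RPLP0 had log2 fold changes of -0.35 ± 0.15 and -0.20 ± 0.16 (SE). Ribosomal protein genes have many processed pseudogenes, between which the counting may have split reads.

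Lists of mitochondrial and splicing genes lay below 0 as well. Of 72 nuclear-encoded genes of the respiratory chain, 66 had a negative log2 fold change, 40 of them and 0 of the others with an unadjusted p under 0.05, beside 9.17% of all genes, at a median of -0.37. None was DE in edgeR, and 6 were in DESeq2, beside 359 of all 12617 genes. ATP5E, a subunit of ATP synthase, was lower in all 7 animals, at 240 ± 57.0 CPM (SD, n = 8) and 139 ± 22.3 CPM (SD, n = 7), with an adjusted p of 0.0986. Other members had values near or above 0. NDUFS1, a core subunit of complex I, was at 0.41 ± 0.31 (SE), UQCRC2 of -0.09 ± 0.22 and ATP5A1 of -0.03 ± 0.25. Of 71 mitochondrial ribosomal proteins 64 were negative, 24 with an unadjusted p under 0.05, beside 9.17% of all genes. The median of the 71 was -0.23, and 0 were DE in edgeR or DESeq2. MRPS33 was lower in all 7 animals, at 63.1 ± 13.4 CPM (SD, n = 8) and 43.2 ± 7.998 CPM (SD, n = 7). The median of the respiratory chain was above 0 in animals 20275 and 21189 and below 0 in the other 5, from -0.98 in animal 22130 to 0.17 in animal 20275. Of 31 SR and hnRNP splicing factors, 28 were negative, 17 with an unadjusted p under 0.05, beside 9.17% of all genes. The median of the 31 was -0.29, and 0 were DE in edgeR or DESeq2. SRSF5 was lower in all 7 animals, with 188 ± 29.2 CPM (SD, n = 8) and 125 ± 20.1 CPM (SD, n = 7).

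Lists of chromatin regulators and ubiquitin ligases lay on the other side. Of 39 chromatin regulators, 36 had a positive log2 fold change, 22 with an unadjusted p under 0.05 against 8.12% of all genes, and the median was 0.37. None was DE in edgeR and 8 were in DESeq2, beside 359 of all 12617 genes. The coactivator NCOA2 had 12.7 ± 6.00 CPM (SD, n = 8) and 36.8 ± 8.31 CPM (SD, n = 7), without overlap, and an adjusted p of 0.0832. The histone methyltransferase ASH1L was at 112 ± 38.8 CPM (SD, n = 8) and 189 ± 32.4 CPM (SD, n = 7). All 20 ubiquitin ligases and giant HECT proteins were positive, 10 with an unadjusted p under 0.05, beside 8.12% of all genes. Their median was 0.41, and 0 were DE in edgeR and 3 in DESeq2. MYCBP2 was higher in all 7 animals, with 56.9 ± 13.4 CPM (SD, n = 8) and 96.3 ± 16.3 CPM (SD, n = 7) and an adjusted p of 0.0832. The medians of both lists were positive in 6 of 7 animals, at -0.06 and -0.20 in animal 22130. Without the 5 libraries that stood apart on the first component 34 of 39 and 16 of 20 were positive, at medians of 0.20 and 0.22. An unadjusted p under 0.05 was reached by 11 and 3. Of the 12414 genes tested in that fit, 1195 reached it, 608 of them higher.

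**Figure D4:**
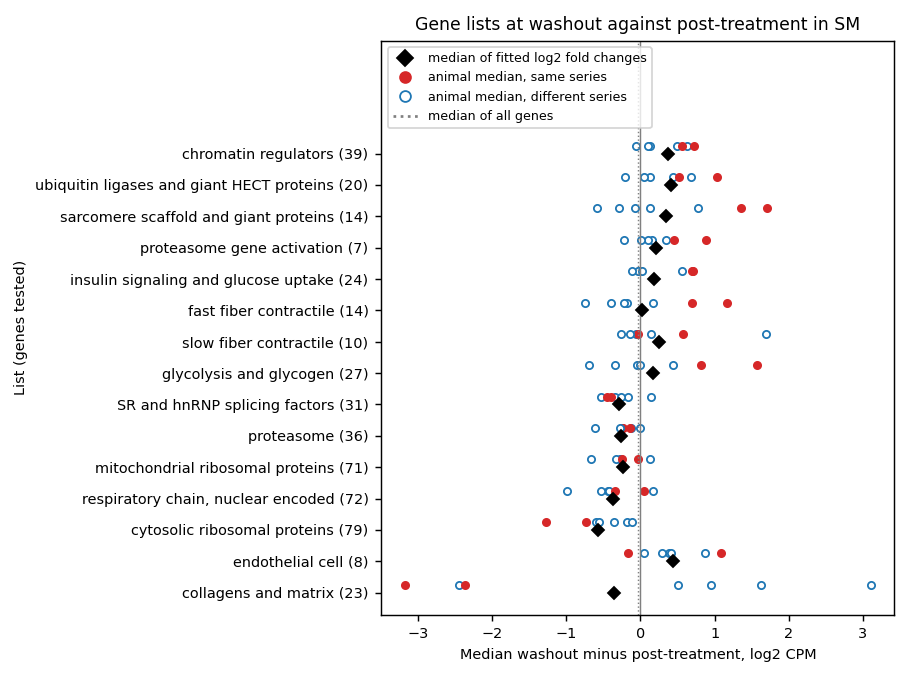
Median change of 15 gene lists between post-treatment and washout in SM, on the log2 scale, with the number of genes tested in parentheses; diamonds are medians of fitted log2 fold changes, points are medians in single animals (red, 1 identifier series; open blue, different series), and the dotted line is the median of all genes. Cytosolic ribosomal proteins lie below 0 in each animal, at a median of -0.57, whereas collagen and matrix genes range from -3.18 to 3.11.

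The contractile apparatus could not be given a direction. Of 14 fast fiber genes and 10 slow fiber genes, 0 were DE in edgeR or DESeq2 and 0 had an unadjusted p under 0.05 in edgeR, and the medians were 0.02 and 0.25. The fast myosins MYH1 and MYH2 had log2 fold changes of 0.49 ± 0.36 and 0.48 ± 0.34 (SE) and the slow myosin MYH7 of 0.99 ± 0.80. Fast fiber genes were at 0.89 in the animals of 1 series and at -0.25 in the others. TTN (titin), the giant spring of the sarcomere, was at 26584 ± 15075 CPM (SD, n = 8) and 46796 ± 6657 CPM (SD, n = 7), with a log2 fold change of 0.85 ± 0.35 (SE, with adjusted p = 0.233) that was 2.24 in the animals of 1 series and 0.43 in the others. FBXO32 (atrogin-1), a ligase of muscle atrophy, was at 439 ± 211 CPM (SD, n = 8) and 701 ± 175 CPM (SD, n = 7), higher in 6 of 7 animals, with an adjusted p of 0.218. PPP1R3A, which ties a phosphatase to glycogen, was higher in 6 of 7 animals as well, with 406 ± 214 CPM (SD, n = 8) and 891 ± 266 CPM (SD, n = 7) and an adjusted p of 0.130. Over the 27 genes of glycolysis and glycogen, 3 were higher and 1 was lower (unadjusted p under 0.05, beside 8.12% and 9.17% of all genes), and GAPDH had a log2 fold change of -0.03 ± 0.33 (SE).

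No gene of the FGF21 receptor system passed the test: of 8 tested, 0 were DE in edgeR or DESeq2 and 0 had an unadjusted p under 0.05. FGF21 had at most 14 counts in any SM library and was not tested. KLB was at 0.740 ± 0.886 CPM (SD, n = 8) post-treatment and 0.418 ± 0.354 CPM (SD, n = 7) at washout, lower in 6 of 7 animals, with a log2 fold change of -0.82 ± 0.58 (SE, with adjusted p = 0.486). Without animal 24849, whose post-treatment library held 2.84 CPM of KLB where the other 7 had at most 0.777 CPM, the log2 fold change was -0.28. That library also had the highest sum of adipocyte markers, 1283 CPM against at most 273 CPM in the other post-treatment libraries, and at washout KLB and this sum were both highest in animal 20456, at 1.08 and 288 CPM. The part of fat cells in the KLB values was not tested. FGFR1 was at 57.4 ± 36.9 CPM (SD, n = 8) and 44.2 ± 24.8 CPM (SD, n = 7), with a log2 fold change of -0.07 ± 0.36 (SE, with adjusted p = 0.937) that was -1.20 in the animals of 1 series and 0.35 in the others. In a fit of the 4 libraries of these 2 animals alone FGFR1 was lower by a log2 fold change of -1.12 (adjusted p = 0.0308 in edgeR). With 2 animals, that adjusted p is a weak measure of the spread between animals. Without these 2 animals FGFR1 was at 0.37 (adjusted p = 0.769), so that no direction is given for FGFR1. Of the 14 genes that ERK signaling below FGF receptors induces and is curbed by, 0 were DE in edgeR and 1 in DESeq2 (359 of all 12617 genes). ETV4 was lower in all 7 animals, at 4.93 ± 4.89 CPM (SD, n = 8) and 1.11 ± 0.596 CPM (SD, n = 7), with a pre-treatment mean of 0.881 CPM and an adjusted p of 0.107. The post-treatment libraries of animals 21189 and 21866, both high in connective tissue, held 15.4 and 9.08 CPM of ETV4. The other post-treatment libraries held between 1.18 and 3.78 CPM, so that the mean rests largely on these 2 animals. The other genes of this list had p-values over 0.05, and SPRY1 was at 32.1 ± 8.36 CPM (SD, n = 8) and 32.9 ± 4.67 CPM (SD, n = 7).

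Markers of neutrophils, erythroid cells and endothelium had positive medians at washout. So had those of muscle fibers (0.44), pericytes and smooth muscle (0.39), macrophages (0.23) and tendon (0.15). Medians were -0.26 for T cells, -1.13 for adipocytes, -0.72 for Schwann cells and nerve, -0.25 for fibroblasts and -0.08 for satellite cells. Apart from CD4, no T cell marker had more than 47 counts in any SM library. Of the 5 T cell markers tested, 2 were lower and 0 higher at an unadjusted p under 0.05 in edgeR, beside 9.17% and 8.12% of all genes. The 3 B and plasma cell markers tested had a median of 0.44, and 1 of them was lower at an unadjusted p under 0.05 in edgeR. All 5 neutrophil markers tested were positive, 3 with an unadjusted p under 0.05 beside 8.12% of all genes, at a median of 1.06. Their sum was 1.10 to 3.78 CPM post-treatment and 1.97 to 10.7 CPM at washout, so that the level was low throughout. CSF3R, the receptor for granulocyte colony-stimulating factor, was at 0.0738 ± 0.146 CPM (SD, n = 8) and 1.45 ± 1.66 CPM (SD, n = 7). Erythroid markers summed to 16.5 to 4279 CPM post-treatment, the highest in animal 22130, and 63.4 to 1629 CPM at washout, with medians of 55.4 and 839 CPM. HBB made up most of this sum. All 8 endothelial markers were positive at a median of 0.44, 3 with an unadjusted p under 0.05 beside 8.12% of all genes. With library size as the scaling 6 of 8 were positive. KDR, the main receptor for VEGF, was higher in all 7 animals, at 5.53 ± 1.92 CPM (SD, n = 8) and 9.42 ± 3.44 CPM (SD, n = 7), with an adjusted p of 0.174. Adipocyte markers summed to 62.0 to 1283 CPM and 47.1 to 288 CPM. Of the marker lists, 0 genes were DE in edgeR. The part of these cells in the DE genes was not tested.

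Compared to pre-treatment, all 24 genes had a log2 fold change at washout of the same sign as that against post-treatment. The washout libraries are shared by both comparisons. At washout against pre-treatment 8 of the 24 were DE, of 8 DE genes in that comparison, and post-treatment against pre-treatment 0 of 12617 genes were DE in edgeR, where 410 had an unadjusted p under 0.05. DDI2 was at 2.32 ± 0.521 CPM (SD, n = 6) before treatment, with a log2 fold change of 2.32 at washout against pre-treatment (adjusted p = 0.0103 in edgeR), and RC3H2 was at 4.60 ± 2.73 CPM (SD, n = 6), with 2.24 (adjusted p = 0.0476). SKIL, GFPT1 and CACNA2D1 had pre-treatment means of 8.04, 18.6 and 63.7 CPM beside post-treatment means of 8.13, 18.6 and 63.0 CPM. EXPH5 had means of 5.86, 3.39 and 12.7 CPM at pre-treatment, post-treatment and washout.

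In subcutaneous adipose tissue (AT) taken at the same time points, most of these genes went the other way. Of the 24, 23 were tested in both tissues. In AT 18 of them were DE at washout compared to post-treatment, of which 17 were lower and EXPH5 was higher, where 35.4% of all genes in AT were DE. The difference between the tissues was tested as an interaction and was DE for 22 of the 23, against 22.8% of all 12322 genes, and EXPH5 was the exception (adjusted p = 0.239). The 23 genes were selected by their SM change, which is part of this difference. A high share among them is therefore partly built in, and no conclusion is drawn from it. RC3H2 went from 19.9 ± 4.15 CPM (SD, n = 9) to 5.63 ± 3.17 CPM (SD, n = 8) in AT, with a log2 fold change of -1.95 ± 0.18 (SE, with adjusted p = 1.28e-06 in edgeR), and was lower in all 8 paired animals. DDI2 had a log2 fold change of -1.88 ± 0.21 (SE, with adjusted p = 6.33e-06), VPS13C of -1.87 ± 0.19 (adjusted p = 2.32e-06) and SKIL of -1.65 ± 0.25 (adjusted p = 9.89e-05). In AT, 3 of 8 paired animals had both libraries in 1 series, and RC3H2 differed by -2.01 in these and -1.82 in the other 5. This split is not given here for the other genes. Between post-treatment and washout, the series of the other 5 AT animals ran from last to middle or first, except in animal 23004 (middle to last). In SM, where the series differed, it ran from first to last or middle. Series and the difference between the tissues are thus largely confounded, and the part of series was not tested. Chromatin regulators had a median of -0.17 in AT, with 12 of 39 DE and lower and 3 higher, and the difference between the tissues was DE for 18 of the 39. Cytosolic ribosomal proteins had a median of -0.24 in AT, of the same sign as in SM, with 23 of 78 DE and lower.

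**Figure D5:**
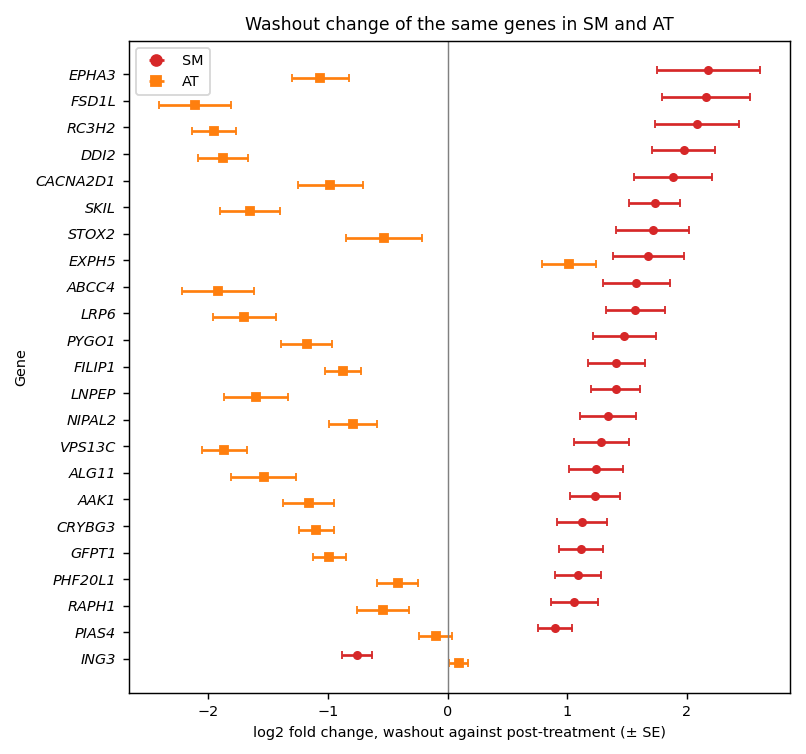
Log2 fold changes at washout compared to post-treatment in SM (red circles) and AT (orange squares) with SE, for the 23 genes DE in SM and tested in both tissues. For 21 genes the SM value is above 0 and the AT value below; EXPH5 is above 0 in both, and ING3 is -0.76 in SM and 0.09 in AT.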

How the data were processed

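RNA sequencing counts of SM and AT biopsies of macaques at 3 time points were used. Per gene, the authors deposited raw counts for 48 libraries, made from reads that STAR placed on the macaque assembly MacaM; 3 labelled SM samples were not analysed here. Of 16103 entries, 70 repeats with identical counts were dropped. A gene was tested if it reached 0.5 CPM in 10% or more of the SM libraries (3 libraries), which is 7.52 counts in the smallest of the 15.

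TMM factors, log2 CPM (prior count 2) and robust quasi-likelihood tests came from edgeR 4.0.16 under R 4.3.3. The model held time point and animal for all 21 SM libraries, and p-values were adjusted by Benjamini-Hochberg across every gene tested. SE is the log2 fold change divided by the root of the F statistic. AT was fitted alone, and the interaction over both tissues with scaling within each. The fit was tested on simulated data. Libraries were paired because their labels give the same animal; after removal of time point means the correlation of paired libraries over genes was between -0.25 and 0.61, with a median of 0.18, against -0.02 between different animals. Each animal is 1 biological sample per time point.

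Named genes were every DE gene if at most 35, the 5 increases and 5 decreases with the smallest p among others with a mean of at least 1 CPM, KLB, FGFR1 and FGF21, and for each list described its member with the smallest p in each direction and its 2 members with the highest level. The comparison and lists were chosen with earlier results of these data known. Alternatives used limma 3.58.1, DESeq2 1.42.0 and sva 3.50.0.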

Additional observations from a re-analysis of the deposited data

Results flagged for a closer look

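For 22 of the 23 DE genes tested in both tissues the washout change differed between AT and SM by the interaction test of edgeR. Named genes that were not DE in SM were not checked for this flag. The DE genes were selected by their SM change, which is part of the difference tested. The difference, AT minus SM on the log2 scale, was -4.38 for FSD1L, -4.06 for RC3H2, -3.89 for DDI2, -3.58 for ABCC4, -3.42 for SKIL, -3.37 for EPHA3, -3.28 for LRP6, -3.16 for VPS13C and -3.02 for LNPEP. It was -2.89 for CACNA2D1, -2.86 for ALG11, -2.67 for PYGO1, -2.41 for AAK1, -2.30 for STOX2, -2.29 for FILIP1, -2.24 for CRYBG3, -2.14 for NIPAL2, -2.11 for GFPT1, -1.61 for RAPH1, -1.52 for PHF20L1 and -1.0 for PIAS4. ING3 differed the other way, by 0.84. The adjusted p-values in edgeR ran from 9.91e-09 for DDI2 to 0.000741 for STOX2.

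A single library stood apart within its time point in 9 of 72 sets of CPM values checked. Chance flags about 1 in 20 sets only where values are normally distributed. That was not tested for these CPM values, so that the 9 are not set against chance. In the post-treatment library of animal 22130, RC3H2 was at 9.84 CPM with the next at 5.72, CACNA2D1 at 163 with the next at 75.7 and ABCC4 at 6.56 with the next at 2.75. In that of animal 21189, PPIH was at 14.8 CPM with the next at 10.7 and FAM13A at 52.3 with the next at 32.2. EXPH5 was at 8.89 CPM in animal 20275 and KLB at 2.84 CPM in animal 24849. At washout, PIM1 was at 86.3 CPM in animal 20456 and FGFR1 at 96.5 CPM in animal 22130. The libraries of 21189, 20275 and 24849 post-treatment and of 22130 at washout are among the 5 that stood apart on the first component. Their part in these values was not tested.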

How the results depend on the processing

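The 24 DE genes kept their direction in every alternative in which they were tested, whereas their number did not hold. It was 4 with library size as the scaling (SKIL, DDI2, LRP6, CACNA2D1), 359 with DESeq2 (213 higher, 146 lower; 22 of the 24 among them), 9 with voomWithQualityWeights, 224 without the animal as a replicate block (115 higher, 109 lower), 2 with only post-treatment and washout libraries and 2 with only the 7 paired animals (EXPH5 and SKIL in both), 2650 with the series as a term and 1905 within the 2 animals of 1 series. The 1905 come from a fit of 2 animals, which is a weak measure of the spread between animals. Without single animals the number of DE genes ranged from 0 to 38. Alternatives added after the data were seen gave 1 without the 5 libraries that stood apart on the first component and 1 without the 2 animals of 1 series (EXPH5). They gave 256 with the matrix gene mean as a term, 164 with 1 surrogate variable and 17 with edgeR's earlier quasi-likelihood method. Counts were within 1.5 times under no filter, 10 counts in every library, and without the fold change limit. The cause was not tested. Of the 24 DE genes 4 were on a list. With the series as a term it was 348 of 2650 DE genes, where 12617 were tested, and with voomWithQualityWeights 2 of 9. Without single animals 0 to 9 were on a list, beside 0 to 38 DE genes in all. These counts are not read as a result about the lists. Within 1 series, 20 of the 23 DE genes tested had an unadjusted p under 0.05. FGFR1 passed the test within 1 series, at -1.12 (adjusted p = 0.0308 in edgeR; 0.0308 to 0.96 over its alternatives), and changed sign to 0.059 with voomWithQualityWeights, 0.12 without the 5 libraries, 0.37 without the 2 animals, 0.034 with the matrix mean and 0.16 with the surrogate variable, and ranged from -0.44 to 0.14 without single animals. Library size as the scaling moved the median of all genes from -0.03 to -0.16, and the list medians of fast fiber genes, Wnt genes and mRNA decay to -0.07, -0.10 and -0.04. The interaction was DE for 2810 genes, and for 3021 with library size as the scaling, with 1487 and 2265 of them higher in AT.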

Other observations

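Genes outside the comparison's main groups that passed an unadjusted p under 0.05 are given as values. DUSP1, a phosphatase induced early by stress, was lower in all 7 animals, at 133 ± 19.9 CPM (SD, n = 8) post-treatment, 77.7 ± 34.6 CPM (SD, n = 7) at washout and 168 CPM as the pre-treatment mean (adjusted p = 0.117 in edgeR), whereas NR4A1, another early gene, was higher in all 7, at 140 ± 59.5 CPM (SD, n = 8) and 293 ± 158 CPM (SD, n = 7) (adjusted p = 0.217). The interferon-stimulated ISG15 was at 0.795 ± 0.414 CPM (SD, n = 8) and 0.228 ± 0.122 CPM (SD, n = 7), lower in 6 of 7 animals (adjusted p = 0.107). BMPR2, a receptor for bone morphogenetic proteins, was higher in all 7 animals, with a log2 fold change of 0.80 ± 0.18 (SE, with adjusted p = 0.0964). In the circadian clock PER2 was lower in 6 of 7 animals (-0.59 ± 0.19, adjusted p = 0.161) and CLOCK higher in all 7 (0.26 ± 0.09, adjusted p = 0.187). ABHD5, the activator of the lipase ATGL, was at 11.4 ± 4.81 CPM (SD, n = 8) and 18.1 ± 1.95 CPM (SD, n = 7), higher in 6 of 7 animals (adjusted p = 0.205).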
